A study of Mus musculus with 30 samples.

Results

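The 49 genes described here encode proteins of mitosis, namely the spindle, the kinetochore, cytokinesis and the condensin complex, with the kinases and transcription factors that control them. They are a list of names, made with earlier results of these data known, and were matched by symbol to Ensembl identifiers. They are 49 of the 55487 genes in the count table, and all 49 were among the 15907 genes with enough counts to be tested. RNA-sequencing was performed on C2C12 myotubes, which form when cells of a mouse myoblast line leave the cell cycle and fuse. All cells were wild type and were differentiated for 4 days in low glucose medium with 2% horse serum, and then kept for 4 further days, 8 days in all, under 1 of 5 conditions. Controls stayed in 2% horse serum (2% HS), and the other groups were serum-deprived without an added agent (SD), with 100 nM metformin (MET), with 500 nM leucine (LEU), or with both at those doses (MET+LEU). Each group had 6 libraries, a single immortalized line stands for muscle, and the labels do not say whether the replicates were separate cultures, so that p-values measure the spread between these samples, which may be technical.

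Proliferating cells transcribe mitotic genes late in the cell cycle, in G2 and M phase, under the control of B-MYB (Mybl2) and FOXM1 bound to the MuvB complex. In cells that leave the cycle the same promoters are held silent by the DREAM complex, which contains MuvB. Most nuclei of myotubes are held to be out of the cycle, and a differentiated C2C12 culture also holds mononucleated cells, among them reserve cells that can return to it. In these bulk libraries, fewer dividing cells and less mitotic RNA per cell cannot be told apart, and which cells carried the transcripts was not measured.

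Promoters of mitotic genes are known for a short element, the cell cycle genes homology region, with the letters TTTGAA, and for CCAAT boxes upstream of it. RefSeq promoters on GRCm38.p6, from 250 bases before to 50 bases after the start, were matched for 37 of the 49 genes, and both strands were searched for each motif, with overlaps between matches allowed. TTTGAA was found in 28 of the 37 promoters (75.7%), against 20.2% of the promoters of all 27025 genes and 4 of 33 DNA replication genes (12.1%). Within 50 bases on either side of the start, 26 of 37 held it (70.3%), against 5.72% of all genes. In the 28 promoters the copy nearest to the start lay between 103 bases before it and 41 bases after it, with a median position of 7 bases after the start, and 20 of the 28 copies were on the strand of the gene. At least 1 CCAAT was found in 27 of 37 (73.0%), against 41.1% of all genes and 21 of 33 replication genes (63.6%). At least 2 were found in 18 of 37 (48.6%), against 13.3% of all genes. A match of letters is a description of the promoter and not evidence of a bound factor. The 150 bases before the start are shown for the 4 genes with TTTGAA before the start and the lowest log2 fold change in MET+LEU vs. SD, read 5′ to 3′ on the strand of the gene, with capitals marking TTTGAA or, where the element is on the opposite strand, its reverse complement TTCAAA, and likewise each CCAAT box, which on the opposite strand reads ATTGG.
Kif2c, chr4:117178773-117178922, minus strand: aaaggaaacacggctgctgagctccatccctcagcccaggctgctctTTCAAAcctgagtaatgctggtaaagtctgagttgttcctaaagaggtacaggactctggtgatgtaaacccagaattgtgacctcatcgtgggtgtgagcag
Cdc20, chr4:118437344-118437493, minus strand: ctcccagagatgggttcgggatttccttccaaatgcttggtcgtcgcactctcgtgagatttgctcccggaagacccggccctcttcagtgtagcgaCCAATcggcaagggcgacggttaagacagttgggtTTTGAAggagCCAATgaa
Kif11, chr19:37376232-37376381, plus strand: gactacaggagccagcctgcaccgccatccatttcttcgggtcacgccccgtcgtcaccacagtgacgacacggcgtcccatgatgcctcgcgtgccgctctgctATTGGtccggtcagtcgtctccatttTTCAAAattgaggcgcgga
Top2a, chr11:99024190-99024339, minus strand: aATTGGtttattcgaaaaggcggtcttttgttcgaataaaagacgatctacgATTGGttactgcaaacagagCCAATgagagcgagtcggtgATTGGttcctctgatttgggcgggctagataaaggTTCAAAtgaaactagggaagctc
In Cdc20, Kif11 and Top2a a TTTGAA, on either strand, lay 18, 19 and 23 bases before the start, with at least 1 CCAAT box upstream of it. In Kif2c the only match in this window lay 103 bases before the start, and no CCAAT was found. These 4 genes are described with their values in the paragraphs on their roles.

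Expression is given as CPM, the counts of a gene relative to the total of its library after scaling by edgeR's TMM method, and libraries held between 12784960 and 19604103 counts on genes. The mitosis genes were measured at low levels: together they took between 0.0491% and 0.0874% of a library's counts. Compared per length in SD, as RPKM (CPM divided by exon length in kilobases), the highest mean was that of Smc4 (11.98), followed by Cks2 (11.9), Cks1b (8.84), Mki67 (7.91) and Top2a (6.995). The lowest were Cdc25c (0.474), Ndc80 (0.698) and Mybl2 (0.780), and Cdc25c had as few as 13 counts in a library. The myotube markers Myog and Acta1 were abundant in every group. Their group means were between 1009 and 1070 CPM for Myog and between 3120 and 3522 CPM for Acta1. Other myotube markers differed between groups, as given below. The myoblast and reserve cell marker Pax7 was also present, at group means between 147 and 190 CPM. Of the 4 markers of other cell types (Pecam1, Ptprc, Adipoq and Epcam) none had enough counts to be tested, and their summed level was at most 0.641 CPM in any library. MET+LEU replicate 6 stood apart, with 5.85% of its counts on ribosomal RNA (at most 1.96% elsewhere) and 7.64% on the mitochondrial kind (at most 0.760% elsewhere). Its TMM scaling factor was 0.803, against 0.968 to 1.034 elsewhere, which raises its CPM relative to its total. The mitosis genes took the lowest share of counts in this library (0.0491%), while their summed CPM (612) was the highest of MET+LEU. Within their groups, SD replicate 6 was above the group median in 43 of the 49 genes, MET replicate 6 in 42 and LEU replicate 1 in 41.

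Summed over the 49 genes, expression was highest in SD and lowest in MET+LEU. The sum was 562 ± 30.1 CPM (standard deviation, n = 6) in MET+LEU, 601 ± 35.8 in LEU, 699 ± 63.3 in MET, 744 ± 60.2 in SD and 709 ± 37.7 in 2% HS. The 6 MET+LEU libraries lay between 527 and 612 CPM, below every library in 2% HS (657 to 773), SD (665 to 852) and MET (647 to 799), and overlapped LEU (559 to 652). LEU also lay below every library in 2% HS and SD, and overlapped MET. Of the single genes, 37 had their lowest group mean in MET+LEU, 7 in LEU, 4 in 2% HS and 1 in SD. The highest group mean was that of SD in 33, of 2% HS in 14 and of MET in 2.

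**Figure D1:**
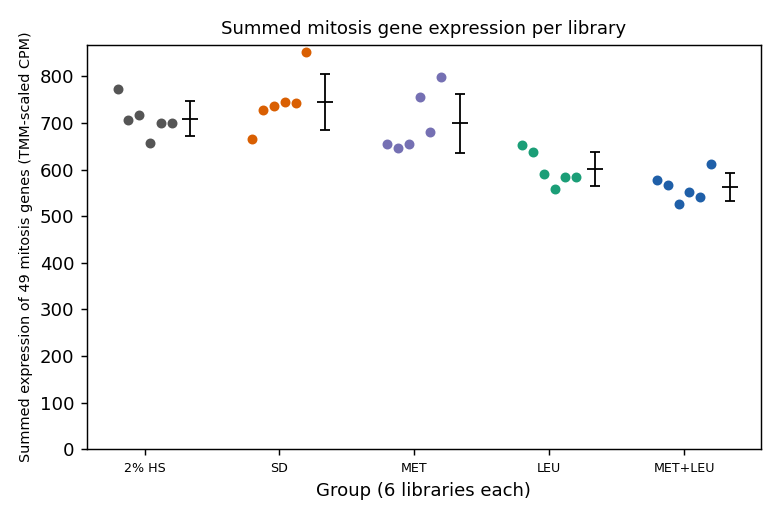
Summed expression of the 49 mitosis genes in TMM-scaled CPM (y axis) in each of the 6 libraries of the 5 groups (x axis). Points are libraries, and the bar beside each group is the mean with its standard deviation. The 6 MET+LEU libraries lie between 527 and 612 CPM, below all libraries in 2% HS, SD and MET.

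The share of mitosis genes that rose with serum deprivation was not far from that of all genes tested, and their changes were small. In SD vs. 2% HS, 10 of 49 genes were upregulated and 0 downregulated, where 13.9% of all genes tested rose and 13.9% fell, and the share of the group that rose was 20.4%. The 10 were cyclin F (Ccnf), Spc24 and Spc25 of the kinetochore, Aurkb, Incenp and Birc5 of the chromosomal passenger complex, Nusap1 and stathmin (Stmn1), which act on microtubules, the CDK-binding subunit Cks1b, and the condensin subunit Smc2. The log2 fold changes ran from 0.22 for Smc2 to 0.53 for Spc24, and the median over all 49 genes was 0.09, against 0.00 over all genes tested. At an unadjusted p under 0.05 there were 12 genes, and the share of all genes at that threshold is not given here. Libraries did not overlap for Ccnf, Spc24 and Incenp, 3 of 49. That share is no higher than the 6.17% of all genes for which this held in the higher direction.

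Ccnf, whose product is the substrate receptor of an SCF ubiquitin ligase that acts in G2, had the lowest adjusted p. It lay at 9.67 to 12.02 (median 10.7) CPM in 2% HS and 13.9 to 16.1 (median 14.6) CPM in SD, with all SD libraries higher, a log2 fold change of 0.45 (SE 0.08, adjusted p = 8.54e-06). Spc24, a subunit of the NDC80 complex that ties kinetochores to microtubules, lay at 2.71 to 4.81 (median 3.89) CPM in 2% HS and 4.85 to 5.95 (median 5.53) CPM in SD, and its log2 fold change was 0.53 (SE 0.13, adjusted p = 0.000981). For Incenp, the scaffold of the chromosomal passenger complex, the ranges were 12.4 to 14.7 (median 13.3) CPM and 15.9 to 18.6 (median 16.7) CPM, and the log2 fold change was 0.33 (SE 0.09, adjusted p = 0.00267). Those 3 genes were the ones whose groups did not overlap. Stmn1, which destabilizes microtubules, had means of 8.67 ± 1.12 CPM in 2% HS and 11.97 ± 2.09 CPM in SD, and its log2 fold change was 0.46 (SE 0.11, adjusted p = 0.00188). The others with their log2 fold changes were Aurkb at 0.39 (adjusted p = 0.0148), Spc25 at 0.37 (adjusted p = 0.0346), Birc5 at 0.32 (adjusted p = 0.0332), Nusap1 at 0.31 (adjusted p = 0.0141), Cks1b at 0.28 (adjusted p = 0.0223) and Smc2 at 0.22 (adjusted p = 0.0274). For each of these 6 the groups' libraries overlapped. Mki67, Top2a, Foxm1, Mybl2, Plk1 and Cdc20 did not pass the test, with log2 fold changes between -0.08 for Foxm1 and 0.33 for Mybl2. Without SD replicate 6 the count of upregulated genes was 5, and without 2% HS replicate 1 or replicate 4 it was 6. Ccnf, Spc24, Incenp, Stmn1 and Aurkb passed in each of the 30 fits that left out 1 library.

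In MET+LEU vs. SD nearly the whole group was lower. Of 49 genes, 44 were downregulated and 0 upregulated, where 7.80% of all genes tested fell and 10.6% rose. The median log2 fold change was -0.52, against -0.01 over all genes. The 6 MET+LEU libraries were below all 6 SD libraries for 21 of the 49 genes, where this held for 1.93% of all genes. The 5 genes that did not pass were Mybl2, Kif20b, Smc2, Smc4 and Hmgb2. Of the 44 calls, 36 were made in each of the 30 fits that left out 1 library, and those of Cks1b, Cks2, Mad2l1, Ube2c, Spc24, Incenp, Stmn1 and Mki67 were not. Without MET+LEU replicate 6 there were 43. Relative to the serum control as well, MET+LEU was lower: in MET+LEU vs. 2% HS, 33 genes were downregulated and 0 upregulated, where 20.3% of all genes fell and 22.1% rose, with a median log2 fold change of -0.43 against -0.01. Non-overlapping libraries were found for 16 genes in that direction, where this held for 9.51% of all genes. MET+LEU vs. SD shares its MET+LEU libraries with this comparison and its SD libraries with SD vs. 2% HS, so the values of a gene in these comparisons are not independent.

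**Figure D2:**
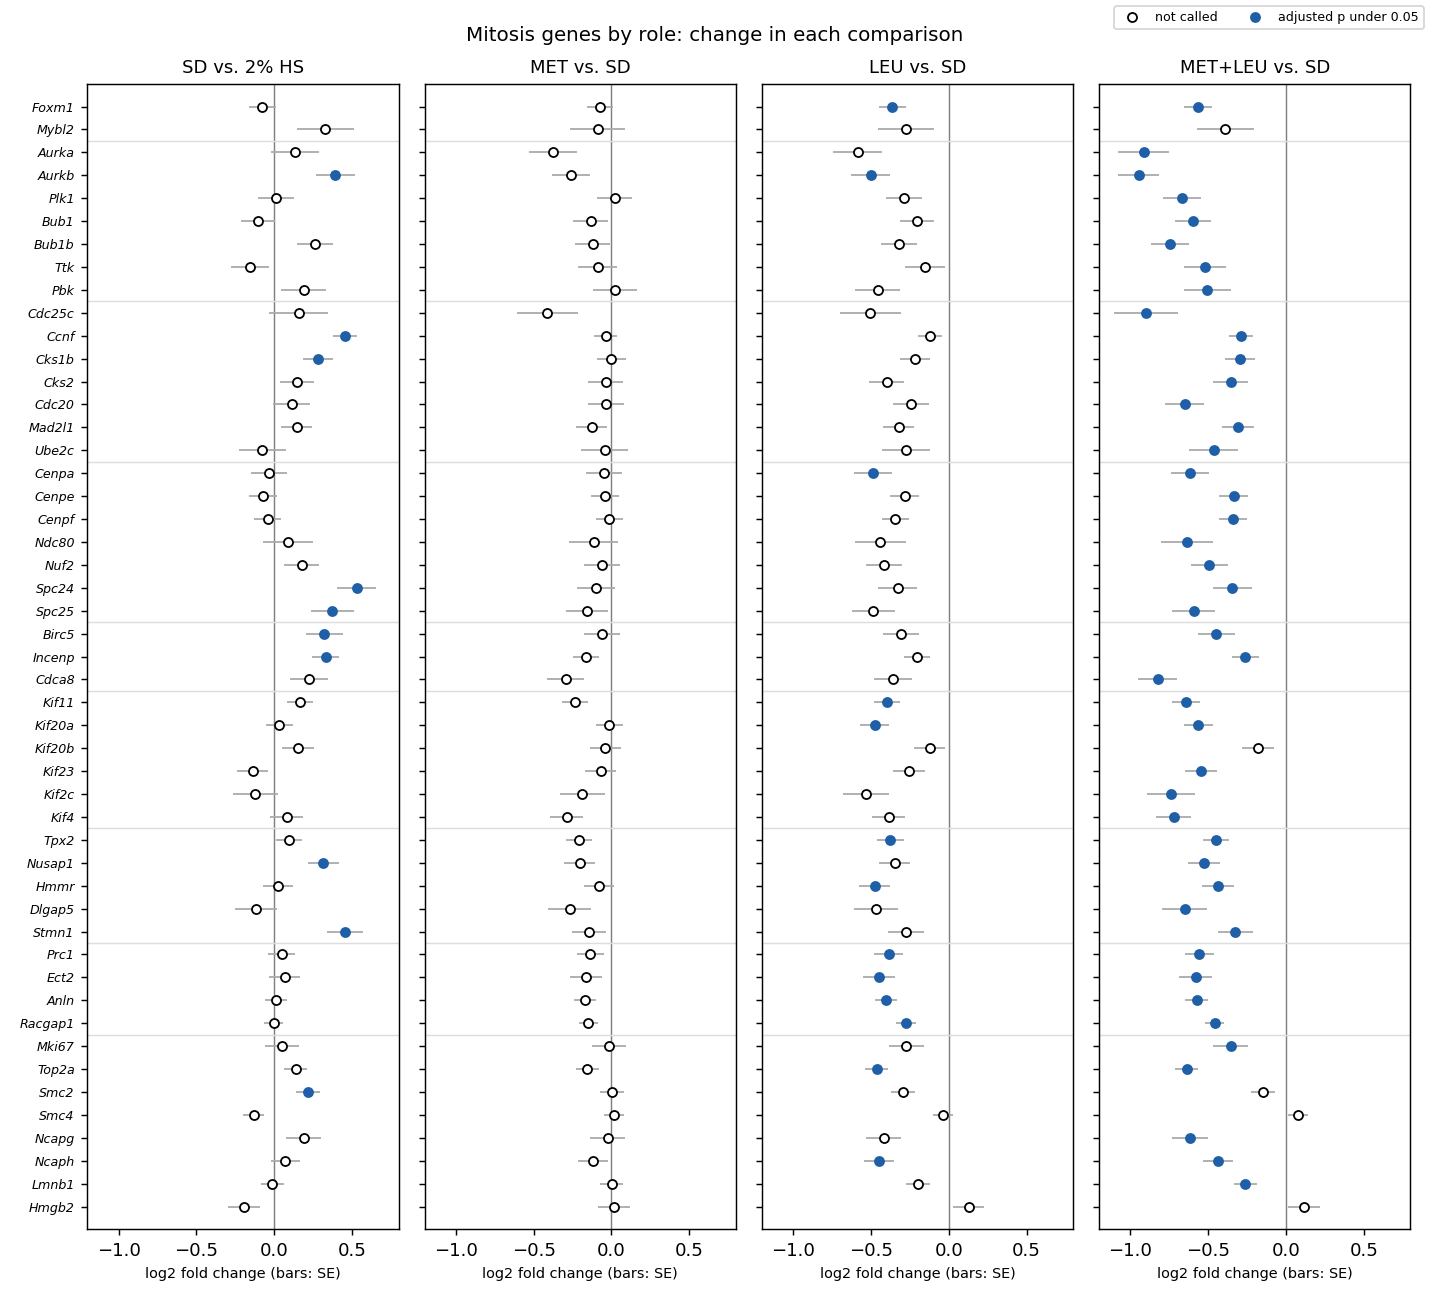
Log2 fold change of each of the 49 mitosis genes (rows, in blocks by role) in 4 comparisons, with standard errors as bars. Filled points passed an adjusted p under 0.05 and open points did not, and the filled points number 10 in the panel of serum deprivation, 0 with MET, 13 with LEU and 44 with MET+LEU.

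Of the transcription factors that drive the group, Foxm1 fell and Mybl2 did not pass the test in any comparison. FOXM1 activates genes of G2 and mitosis. Foxm1 (ENSMUSG00000001517, chr6:128362967-128376146) had CPM of 7.78 to 12.2 (median 11.1) in MET+LEU, 10.5 to 13.6 (median 12.3) in LEU, 13.2 to 17.7 (median 14.7) in MET, 13.9 to 17.2 (median 15.9) in SD and 14.1 to 19.5 (median 16.6) in 2% HS. All MET+LEU libraries were below all libraries in 2% HS, SD and MET, and all LEU libraries were below all SD libraries. The log2 fold change was -0.57 (SE 0.09, adjusted p = 1.26e-05) in MET+LEU vs. SD, -0.64 (SE 0.09, adjusted p = 6.51e-08) vs. 2% HS, -0.49 (SE 0.09, adjusted p = 0.000375) vs. MET and -0.36 (SE 0.09, adjusted p = 0.0335) in LEU vs. SD. B-MYB acts upstream in the same program. Mybl2 (ENSMUSG00000017861, chr2:163054687-163084688) was among the lowest of the group, at 1.67 to 3.71 (median 2.98) CPM in 2% HS, 2.50 to 4.85 (median 3.32) in SD and 1.98 to 3.63 (median 2.75) in MET+LEU. Its ranges overlapped in each of these pairs, and the log2 fold change in MET+LEU vs. SD was -0.39 (SE 0.18, adjusted p = 0.136), with a 95% confidence interval of -0.76 to -0.02.

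The mitotic kinases included the largest decreases. All 7 were downregulated in MET+LEU vs. SD, 6 of 7 vs. 2% HS (Pbk was not), 7 of 7 vs. MET, 3 of 7 vs. LEU (Aurkb, Bub1 and Bub1b), and 1 of 7 in LEU vs. SD (Aurkb). In the same order, 7.80%, 20.3%, 3.15%, 1.67% and 0.321% of all genes tested fell. Aurora B is the kinase of the chromosomal passenger complex, which corrects faulty attachments of chromosomes to the spindle. Aurkb (ENSMUSG00000020897, chr11:69045647-69051664) had CPM of 1.78 to 3.95 (median 3.03) in MET+LEU, 3.47 to 5.02 (median 3.86) in LEU, 4.37 to 5.70 (median 4.78) in MET, 4.77 to 6.58 (median 5.82) in SD and 3.94 to 5.26 (median 4.32) in 2% HS. SD was highest and MET+LEU lowest, and the MET+LEU libraries did not overlap SD or MET. The change was 48.1% lower in MET+LEU vs. SD, a log2 fold change of -0.95 (SE 0.13, adjusted p = 1.77e-06), and -0.55 (SE 0.14, adjusted p = 0.000945) vs. 2% HS. Aurora A, which matures centrosomes and builds the spindle, followed with 4.37 to 6.84 (median 5.76) CPM in SD and 2.28 to 4.40 (median 2.92) CPM in MET+LEU. Those ranges met at their edges, and the log2 fold change of Aurka was -0.91 (SE 0.16, adjusted p = 9.26e-05), against -0.78 (SE 0.17, adjusted p = 0.000165) vs. 2% HS.

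Polo-like kinase 1 acts from entry into mitosis to cytokinesis. Plk1 (ENSMUSG00000030867, chr7:122159439-122169873) had CPM of 2.997 to 5.23 (median 5.05) in MET+LEU, 5.35 to 6.45 (median 6.20) in LEU, 6.53 to 8.45 (median 7.39) in MET, 5.96 to 8.73 (median 7.50) in SD and 6.12 to 8.30 (median 7.61) in 2% HS. The MET+LEU libraries were below all libraries of the other 4 groups, LEU included. The log2 fold change was -0.67 (SE 0.12, adjusted p = 9.06e-05) in MET+LEU vs. SD, -0.66 (SE 0.12, adjusted p = 1.68e-05) vs. 2% HS and -0.69 (SE 0.12, adjusted p = 0.000238) vs. MET. Vs. LEU it was -0.38 (SE 0.12, adjusted p = 0.0511), which did not pass the test although the libraries did not overlap. In Plk1 7.09% of exon bases overlap a gene on the other strand. The spindle checkpoint kinase Bub1 lay at 6.53 to 7.85 (median 6.98) CPM in 2% HS, 5.69 to 7.49 (median 6.60) in SD, 4.55 to 7.66 (median 5.38) in LEU and 3.32 to 4.80 (median 4.53) in MET+LEU, and its log2 fold change in MET+LEU vs. 2% HS was -0.70 (SE 0.11, adjusted p = 2.38e-06). Its partner BubR1 (Bub1b), which inhibits the anaphase-promoting complex, fell from 8.63 ± 1.31 CPM in SD to 5.15 ± 1.32 in MET+LEU, a log2 fold change of -0.74 (SE 0.12, adjusted p = 2.11e-05). Ttk, the kinase MPS1 at the top of the checkpoint, had log2 fold changes of -0.52 (adjusted p = 0.00407) vs. SD and -0.68 (adjusted p = 3.91e-05) vs. 2% HS. Pbk, a mitotic kinase, had -0.50 (adjusted p = 0.0127) vs. SD and -0.32 (adjusted p = 0.0886) vs. 2% HS.

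**Figure D3:**
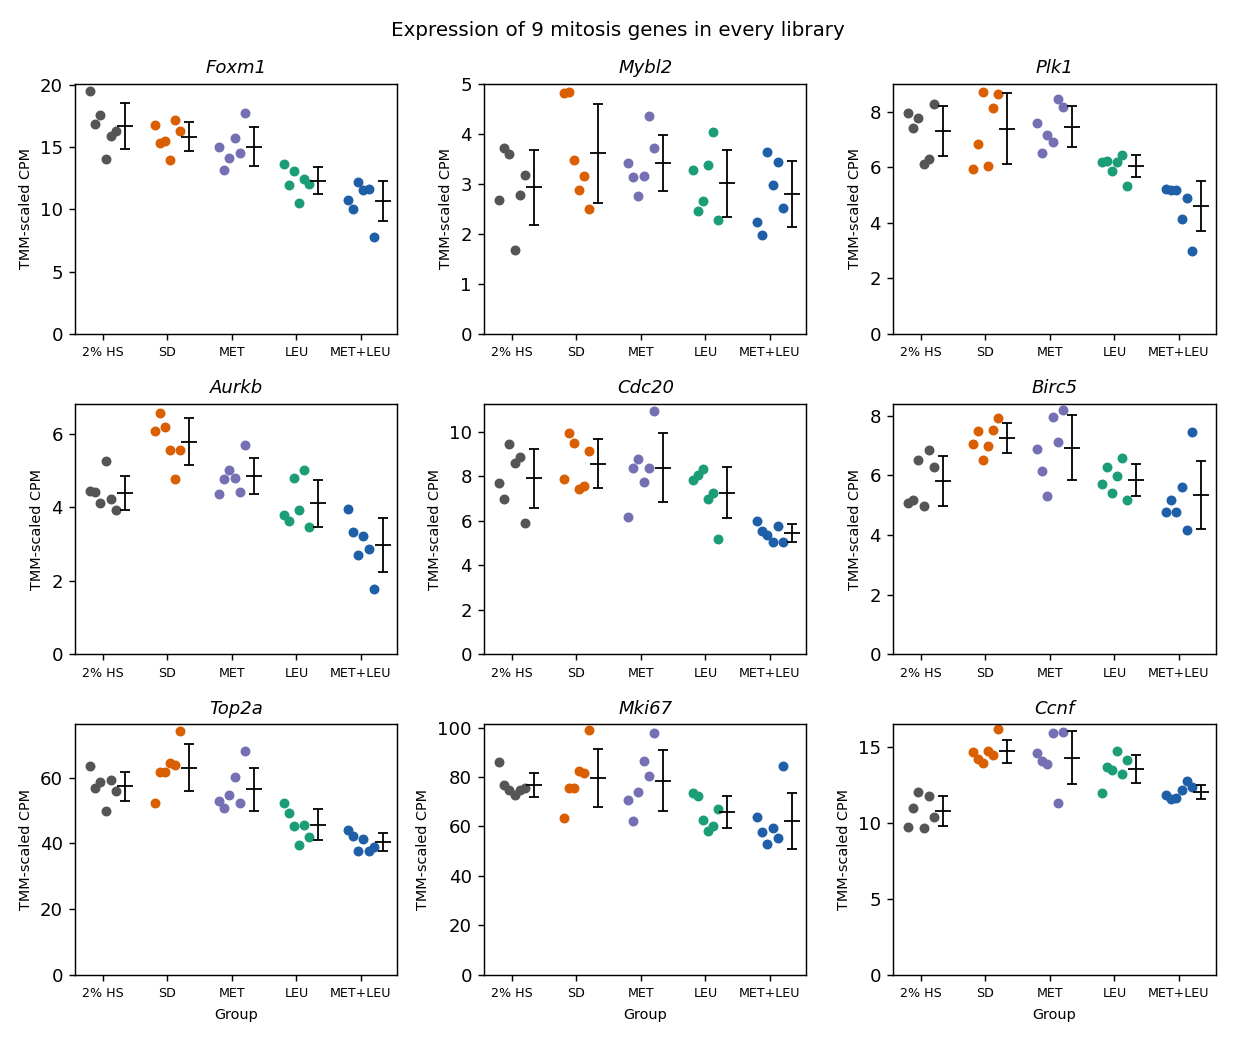
TMM-scaled CPM (y axes, starting at 0) of Foxm1, Mybl2, Plk1, Aurkb, Cdc20, Birc5, Top2a, Mki67 and Ccnf in each of 6 libraries of the 5 groups (x axes). Points are libraries and the bar beside each group is the mean with its standard deviation. Plk1 in MET+LEU (3.00 to 5.23 CPM) lies below every other group, while Mybl2 overlaps between groups.

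Genes for entry into and exit from mitosis were all downregulated in MET+LEU vs. SD, 7 of 7, but by a median of -0.35 on the log2 scale, and 3 of 7 passed vs. 2% HS (Cdc20, Cdc25c and Ube2c). In those comparisons 7.80% and 20.3% of all genes tested fell. CDC20 activates the anaphase-promoting complex, which ends mitosis. Cdc20 (ENSMUSG00000006398, chr4:118432901-118437352), whose promoter is shown above, had CPM of 5.02 to 5.99 (median 5.44) in MET+LEU, 5.17 to 8.32 (median 7.52) in LEU, 6.16 to 10.9 (median 8.37) in MET, 7.43 to 9.96 (median 8.50) in SD and 5.88 to 9.43 (median 8.15) in 2% HS. MET+LEU did not overlap SD or MET, and overlapped LEU and 2% HS. The log2 fold change was -0.65 (SE 0.12, adjusted p = 0.000159) in MET+LEU vs. SD, -0.54 (SE 0.12, adjusted p = 0.000412) vs. 2% HS, -0.62 (SE 0.12, adjusted p = 0.00116) vs. MET and -0.41 (SE 0.12, adjusted p = 0.0392) vs. LEU. Cdc25c, the phosphatase that switches on CDK1, had the lowest level of the group, at 1.77 to 2.71 (median 2.33) CPM in SD and 0.952 to 1.78 (median 1.14) CPM in MET+LEU. The ranges overlapped by little, and the log2 fold change was -0.90 (SE 0.21, adjusted p = 0.00150), with exons of which 12.7% overlap a gene on the other strand. Ccnf, raised by serum deprivation, fell to 11.6 to 12.7 (median 11.97) CPM with a log2 fold change of -0.29 (SE 0.08, adjusted p = 0.00594), and its difference in MET+LEU vs. 2% HS was 0.16 (adjusted p = 0.0930). The small CDK-binding proteins Cks1b and Cks2 had -0.30 (adjusted p = 0.0235) and -0.35 (adjusted p = 0.0216), the checkpoint protein MAD2 (Mad2l1) -0.31 (adjusted p = 0.0288), and Ube2c, the ubiquitin-conjugating enzyme of the anaphase-promoting complex, -0.46 (adjusted p = 0.0333). In Ube2c 22.8% of exon bases overlap the abundant muscle gene Tnnc2 on the other strand. The library kit was stranded, but the strand setting of the counting is not given in the sources used here.

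All 7 kinetochore and centromere genes were downregulated in MET+LEU vs. SD, although for 0 of them did the libraries separate fully. Over all genes tested 7.80% fell in that comparison, and the libraries separated in the lower direction for 1.93%. Vs. 2% HS 5 of 7 were downregulated, where 20.3% of all genes tested fell. Spc24 and Spc25, which serum deprivation had raised, were not, at 0.18 (adjusted p = 0.263) and -0.22 (adjusted p = 0.222). CENP-A is the histone variant that marks the centromere. Cenpa lay at 7.66 to 11.5 (median 8.75) CPM in 2% HS, 6.85 to 11.7 (median 8.63) in SD, 5.35 to 8.29 (median 6.21) in LEU and 5.10 to 7.47 (median 5.43) in MET+LEU. Its MET+LEU libraries were below all 2% HS libraries, and the log2 fold change was -0.65 (SE 0.12, adjusted p = 3.13e-05) vs. 2% HS and -0.62 (SE 0.12, adjusted p = 0.000350) vs. SD. The 4 subunits of the NDC80 complex had log2 fold changes vs. SD of -0.64 (adjusted p = 0.00525) for Ndc80, -0.49 (adjusted p = 0.00227) for Nuf2, -0.34 (adjusted p = 0.0445) for Spc24 and -0.59 (adjusted p = 0.00178) for Spc25. The motor CENP-E (Cenpe) and the large matrix protein CENP-F (Cenpf) both had -0.34, with adjusted p = 0.00821 and 0.00571.

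The chromosomal passenger complex, which Aurora B forms with survivin (Birc5), INCENP and borealin (Cdca8), holds Aurora B at centromeres and later at the central spindle. Its 3 genes other than Aurkb were downregulated in MET+LEU vs. SD, and 1 of 3 vs. 2% HS, where 7.80% and 20.3% of all genes tested fell. With 3 genes, 1 call vs. 2% HS is not far from that share. Cdca8 had the lowest log2 fold change of the 3, and went from 5.39 to 6.85 (median 6.40) CPM in SD to 2.92 to 4.01 (median 3.45) CPM in MET+LEU without overlap, a log2 fold change of -0.82 (SE 0.13, adjusted p = 9.38e-06), and -0.60 (SE 0.13, adjusted p = 0.000172) vs. 2% HS. Birc5 (ENSMUSG00000017716, chr11:117849251-117855743) had CPM of 4.17 to 7.45 (median 4.99) in MET+LEU, 5.17 to 6.58 (median 5.84) in LEU, 5.30 to 8.20 (median 6.99) in MET, 6.52 to 7.92 (median 7.28) in SD and 4.96 to 6.85 (median 5.74) in 2% HS. Its MET+LEU libraries overlapped those of each other group. The overlap with SD came from MET+LEU replicate 6, at 7.45 CPM with its low scaling factor of 0.803. The other 5 lay between 4.17 and 5.62, below all SD libraries. The log2 fold change was -0.45 (SE 0.12, adjusted p = 0.00547) vs. SD, -0.39 (SE 0.12, adjusted p = 0.0313) vs. MET and -0.13 (SE 0.12, adjusted p = 0.429) vs. 2% HS. Without MET+LEU replicate 6 it was -0.56 (adjusted p = 0.000528) vs. SD and -0.24 (adjusted p = 0.108) vs. 2% HS. Incenp had -0.26 (SE 0.09, adjusted p = 0.0278) vs. SD, where the libraries met without overlap (12.1 to 15.9 against 15.9 to 18.6 CPM), and 0.07 (adjusted p = 0.551) vs. 2% HS.

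Of the 6 kinesins, motors that move along microtubules, 5 were downregulated both in MET+LEU vs. SD and vs. 2% HS. In those comparisons 7.80% and 20.3% of all genes tested fell. Among the kinesins Kif20b was the exception, at 10.8 ± 1.42 CPM in SD and 9.57 ± 1.62 in MET+LEU, with log2 fold changes of -0.18 (adjusted p = 0.234) and -0.03 (adjusted p = 0.867). MCAK (Kif2c) takes microtubules apart at kinetochores. It lay at 4.68 to 6.73 (median 6.07) CPM in 2% HS, 4.62 to 5.87 (median 5.35) in SD and 2.24 to 4.70 (median 3.04) in MET+LEU, and its log2 fold change was -0.74 (SE 0.15, adjusted p = 0.000487) vs. SD and -0.86 (SE 0.15, adjusted p = 8.98e-06) vs. 2% HS. Only the edges of these ranges touched. The chromosome-bound motor Kif4 fell from 6.77 to 10.1 (median 8.33) CPM in SD to 4.37 to 6.59 (median 4.69) CPM in MET+LEU without overlap, a log2 fold change of -0.72 (SE 0.11, adjusted p = 1.08e-05), with 15.1% of its exon bases overlapping a gene on the other strand. Eg5 (Kif11), which pushes the spindle poles apart, lay at 11.8 to 17.7 (median 15.01) CPM in SD and 8.54 to 10.9 (median 9.68) CPM in MET+LEU, and its log2 fold change was -0.64 (SE 0.09, adjusted p = 1.18e-06). The cytokinesis motors Kif23 and Kif20a had log2 fold changes of -0.55 (adjusted p = 0.000162) and -0.56 (adjusted p = 2.39e-05) vs. SD, and Kif23 of -0.69 (adjusted p = 3.80e-07) vs. 2% HS. For Kif20a 29.3% of exon bases overlap Cdc23 on the other strand.

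The 5 spindle proteins were all downregulated in MET+LEU vs. SD and 3 of 5 vs. 2% HS, where 7.80% and 20.3% of all genes tested fell. Nusap1 and Stmn1, both raised by serum deprivation, did not pass vs. 2% HS, at -0.21 (adjusted p = 0.0935) and 0.13 (adjusted p = 0.388). HURP (Dlgap5), which stabilizes fibres at the kinetochore, lay at 5.06 to 7.76 (median 6.39) CPM in 2% HS, 4.65 to 8.06 (median 5.57) in SD and 2.78 to 4.78 (median 3.88) in MET+LEU. All MET+LEU libraries were below all 2% HS libraries, and the log2 fold changes were -0.77 (SE 0.14, adjusted p = 2.34e-05) vs. 2% HS and -0.65 (SE 0.15, adjusted p = 0.00110) vs. SD. Tpx2, which activates Aurora A on the spindle, had -0.45 (adjusted p = 0.000171) vs. SD, Hmmr, a microtubule-binding protein, -0.44 (adjusted p = 0.00151), Nusap1 -0.53 (adjusted p = 0.000195) and Stmn1 -0.32 (adjusted p = 0.0393).

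The 4 cytokinesis genes passed in more comparisons than most: all were downregulated in MET+LEU vs. SD, vs. 2% HS and vs. MET, and in LEU vs. SD. In the same order, 7.80%, 20.3%, 3.15% and 0.321% of all genes tested fell. Anillin (Anln), which organizes the contractile ring, lay at 21.7 to 27.7 (median 23.9) CPM in MET+LEU, 24.5 to 32.6 (median 26.8) in LEU, 28.8 to 37.1 (median 31.3) in MET, 33.5 to 43.8 (median 34.9) in SD and 33.00 to 40.2 (median 35.3) in 2% HS. The MET+LEU libraries were below all libraries of 2% HS, SD and MET, and the log2 fold change was -0.57 (SE 0.07, adjusted p = 5.33e-07) vs. SD. Prc1, which bundles microtubules of the central spindle, averaged 26.8 ± 2.74 CPM in SD against 18.2 ± 1.02 in MET+LEU, and its log2 fold change was -0.56 (adjusted p = 5.17e-05), with 11.1% of its exon bases overlapping Rccd1 on the other strand. Ect2, which activates RhoA at the cleavage plane, had -0.58 (adjusted p = 0.000111), and its partner Racgap1 had -0.46 (adjusted p = 1.30e-06). These log2 fold changes vs. SD ranged from -0.58 to -0.46, and those vs. 2% HS from -0.56 to -0.46.

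Of the 8 genes for proteins of chromosome structure and the nucleus, 5 were downregulated in MET+LEU vs. SD, where 7.80% of all genes tested fell. Topoisomerase II alpha (Top2a, ENSMUSG00000020914, chr11:98992943-99024189) untangles sister chromatids. Its CPM was 37.7 to 44.1 (median 40.1) in MET+LEU, 39.6 to 52.4 (median 45.4) in LEU, 50.8 to 68.1 (median 53.7) in MET, 52.2 to 74.4 (median 62.8) in SD and 49.8 to 63.6 (median 57.7) in 2% HS. The MET+LEU libraries were below all libraries of 2% HS, SD and MET, and the gene was 35.7% lower than in SD, a log2 fold change of -0.64 (SE 0.08, adjusted p = 6.34e-07), and -0.50 (adjusted p = 2.21e-06) vs. 2% HS. Ki-67 (Mki67, ENSMUSG00000031004, chr7:135689784-135716361), which coats mitotic chromosomes and is the standard proliferation marker, had CPM of 52.7 to 84.4 (median 58.7) in MET+LEU, 58.3 to 73.7 (median 64.8) in LEU, 62.3 to 97.7 (median 77.2) in MET, 63.2 to 98.8 (median 78.7) in SD and 72.5 to 86.3 (median 75.2) in 2% HS. The ranges overlapped between all groups, and MET+LEU replicate 6 lay at 84.4 CPM while the other 5 MET+LEU libraries lay between 52.7 and 63.6. The value of 84.4 rests in part on the low scaling factor of that library, 0.803. The log2 fold change of Mki67 was -0.35 (SE 0.11, adjusted p = 0.0263) in MET+LEU vs. SD and -0.46 (adjusted p = 0.00326) without MET+LEU replicate 6. The call was lost without SD replicate 6 (adjusted p = 0.0675), MET+LEU replicate 3 (0.0587) or MET+LEU replicate 5 (0.0519).

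Condensin folds chromosomes for mitosis, and 2 of its 4 subunits among the 49 genes passed the test in MET+LEU vs. SD, where 7.80% of all genes fell. The condensin I subunits Ncapg and Ncaph fell in MET+LEU vs. SD, with 5.58 to 8.35 (median 7.69) against 3.73 to 6.005 (median 4.89) CPM and a log2 fold change of -0.62 (SE 0.12, adjusted p = 0.000179) for Ncapg, and 8.58 to 10.03 (median 9.30) against 5.48 to 7.71 (median 7.29) CPM and -0.44 (SE 0.10, adjusted p = 0.00105) for Ncaph. In Ncapg 13.4% of exon bases overlap Lcorl on the other strand. The core ATPases Smc2 and Smc4, which condensin I and II share, did not pass the test, at 21.3 to 30.5 (median 27.8) against 20.01 to 29.97 (median 24.3) CPM for Smc2 and 51.5 to 70.1 (median 63.4) against 56.8 to 70.6 (median 67.8) CPM for Smc4. Their log2 fold changes were -0.15 (SE 0.08) with a 95% confidence interval of -0.30 to 0.01, and 0.08 (SE 0.07) with an interval of -0.05 to 0.21. Of the condensin subunits outside the 49 genes, named here after their values were seen, Ncapd2 of condensin I had -0.44 (adjusted p = 6.12e-07) and Ncapg2 and Ncapd3 of condensin II had -0.42 (adjusted p = 0.000111) and -0.22 (adjusted p = 0.0199), while Ncaph2 of condensin II did not pass, at 0.05 (adjusted p = 0.436). The difference between the subunits was not tested. The DNA-bending protein Hmgb2 also did not pass, at 0.11 (SE 0.10) with an interval of -0.09 to 0.32, and lamin B1 (Lmnb1) of the nuclear envelope fell slightly, with -0.26 (adjusted p = 0.0115). Smc4 and Hmgb2 were the only members of the 49 with a log2 fold change above 0 in this comparison.

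Leucine and metformin were each compared with SD, and the difference between LEU and MET was not tested. In LEU vs. SD, 13 of 49 genes were downregulated and 0 upregulated, where 0.321% of all genes tested fell and 0.233% rose. The median log2 fold change was -0.35, against -0.01 over all genes. The 13 were Foxm1, Aurkb, Cenpa, the motors Kif11 and Kif20a, Tpx2, Hmmr, the 4 cytokinesis genes, Top2a and Ncaph. Top2a had the lowest adjusted p, with -0.46 (SE 0.07, adjusted p = 0.00203) and 39.6 to 52.4 CPM in LEU against 52.2 to 74.4 in SD, ranges that just touched. Anln had -0.40 (SE 0.07, adjusted p = 0.00287) and Kif20a -0.48 (SE 0.09, adjusted p = 0.00427), each with all LEU libraries below all SD libraries. Ncaph had -0.45 (adjusted p = 0.0138), Hmmr -0.48 (adjusted p = 0.0112), Kif11 -0.40 (adjusted p = 0.0138), Ect2 -0.45 (adjusted p = 0.0274) and Prc1 -0.39 (adjusted p = 0.0360). Aurkb and Cenpa were near the threshold, with -0.50 (adjusted p = 0.0474) and -0.49 (adjusted p = 0.0474). Libraries did not overlap for 11 of the 49 genes, where this held in the lower direction for 0.522% of all genes.

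The count in LEU vs. SD moved with single libraries. It was 5 without SD replicate 6 or LEU replicate 4, 8 without SD replicate 4 or LEU replicate 2, and 22 without MET+LEU replicate 6, which is in neither group but enters the shared estimate of the spread. In that last fit 0.629% of all genes tested fell. Kif20a, Anln, Top2a and Ncaph passed in each of the 30 fits that left out 1 library. Mki67, Plk1, Birc5, Cdc20 and Mybl2 did not pass in LEU vs. SD, with log2 fold changes of -0.27 (adjusted p = 0.367), -0.29 (adjusted p = 0.346), -0.31 (adjusted p = 0.290), -0.24 (adjusted p = 0.485) and -0.28 (adjusted p = 0.665) in that order.

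In MET vs. SD 0 of 49 genes passed edgeR's test in either direction, where 0.0817% of all genes tested fell and 0.0754% rose. At an unadjusted p under 0.05 there were 11 genes, all with a negative log2 fold change, limma-voom also called 0, and DESeq2 called 0 of the 21 genes to which it gave an adjusted p. The median log2 fold change was -0.09, and 43 of 49 values were below 0. The shares of all genes tested with an unadjusted p under 0.05 or a value below 0 are not given here, so no trend is read from these counts. The lowest adjusted p was 0.289 for Kif11, with a log2 fold change of -0.24 (SE 0.08) and a 95% confidence interval of -0.41 to -0.07. Next were Kif4 at -0.29 (SE 0.11), Tpx2 at -0.21 (SE 0.08) and Cdca8 at -0.29 (SE 0.12). For Plk1 and Mki67 the intervals were -0.21 to 0.25 and -0.24 to 0.21, so that changes of that size in either direction were not resolved.

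Metformin and leucine were each also compared in the presence of the other agent. LEU vs. SD and MET+LEU vs. MET share no library, and neither do MET vs. SD and MET+LEU vs. LEU. Leucine on top of metformin, MET+LEU vs. MET, downregulated 34 of 49 genes and upregulated 0, where 3.15% of all genes tested fell and 5.54% rose, with a median log2 fold change of -0.41 against 0.01. For 12 genes the libraries did not overlap, where this held for 1.28% of all genes. Of the 13 genes lower in LEU vs. SD, 12 were among the 34, which is 92.3% of the 13 and 35.3% of the 34, and Tpx2 was the exception at -0.24 (adjusted p = 0.0733). With 34 of the 49 genes lower in MET+LEU vs. MET, most of any 13 would be among them. Both comparisons also came from the same fit, with a shared estimate of the spread, so the overlap is not separate support. Plk1 fell the most, by 37.9%, followed on the log2 scale by Aurkb at -0.68 (adjusted p = 0.00104), Bub1b at -0.62 (adjusted p = 0.00102), Cdc20 at -0.62 (adjusted p = 0.00116) and Ncapg at -0.59 (adjusted p = 0.00116). Lower values were also found for Cenpa (-0.57), Kif20a (-0.55), Kif2c (-0.55), Aurka (-0.54), Cdca8 (-0.53) and Top2a (-0.48). Mki67 was at -0.34 (adjusted p = 0.0559), and at -0.45 (adjusted p = 0.0114) without MET+LEU replicate 6. Without MET replicate 4 the count was 21, and 19 of the 34 calls were made in each of the 30 fits that left out 1 library.

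Metformin on top of leucine, MET+LEU vs. LEU, downregulated 5 of 49 genes and upregulated 0, where 1.67% of all genes tested fell and 4.61% rose, with a median of -0.14 against 0.00. The 5 were Cdca8 at -0.47 (adjusted p = 0.0245), Aurkb at -0.44 (adjusted p = 0.0420), Bub1b at -0.42 (adjusted p = 0.0317), Cdc20 at -0.41 (adjusted p = 0.0392) and Bub1 at -0.39 (adjusted p = 0.0348). They act in the passenger complex, the spindle checkpoint and the anaphase-promoting complex. Between LEU and MET+LEU Cdca8 went from 3.52 to 5.83 to 2.92 to 4.01 CPM, Aurkb from 3.47 to 5.02 to 1.78 to 3.95 and Bub1b from 6.19 to 7.56 to 3.08 to 6.97, and the libraries overlapped for each of the 5. Plk1 was the 1 gene of 49 whose libraries did not overlap, where this held for 0.861% of all genes. None of the 5 calls was made in each of the 30 fits that left out 1 library. The count was 1 without LEU replicate 1 or 3, 2 without LEU replicate 5, MET+LEU replicate 4 or MET+LEU replicate 6, and 3 without LEU replicate 2 or 4, and in a model of only the 2 groups it was 0.

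The interaction term asks whether both agents together gave more or less than the sum of each on the log2 scale. For 0 of 49 genes did it pass in either direction, where 0.0126% of all genes tested were below and 0.0377% above, and 2 genes had an unadjusted p under 0.05, Plk1 at -0.40 (SE 0.17) and Cdc20 at -0.38 (SE 0.17). Both were picked by that p, and the share of all genes at that threshold is not given here. Their 95% confidence intervals were -0.74 to -0.07 and -0.72 to -0.03, and the lowest adjusted p was 0.454. The median interaction was -0.02. By limma-voom the count was also 0, and a departure from additivity was not detectable at this depth and spread.

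**Figure D4:**
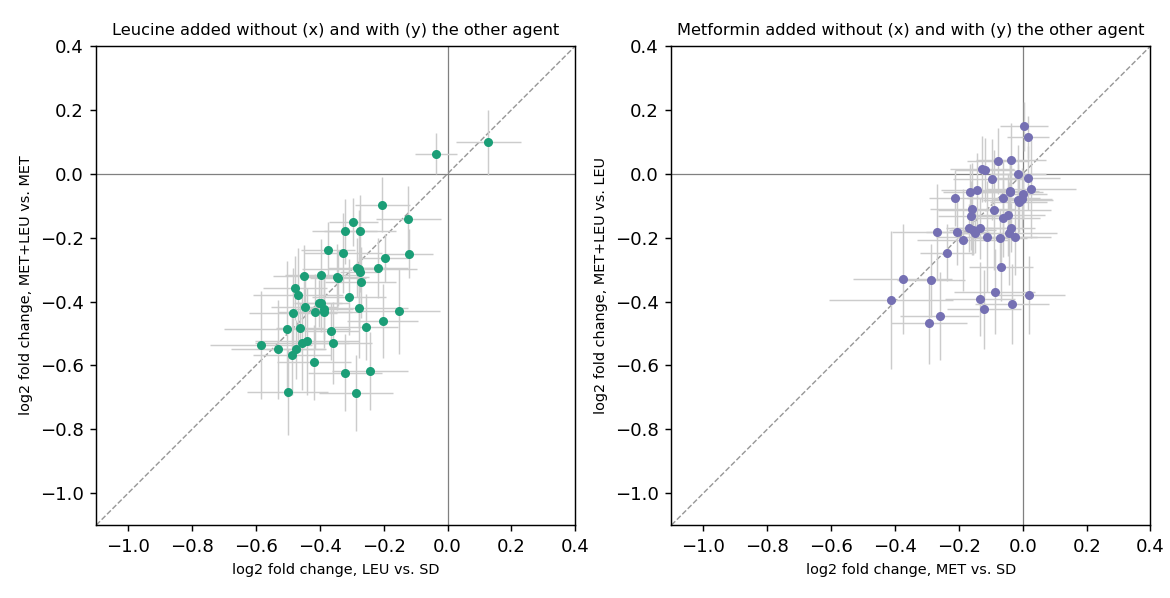
Log2 fold change of the 49 mitosis genes for leucine without metformin (LEU vs. SD, x axis) and with it (MET+LEU vs. MET, y axis) on the left, and for metformin without leucine (MET vs. SD) and with it (MET+LEU vs. LEU) on the right, with standard errors as bars and equality as a dashed line. Leucine values lie below 0 on both axes for nearly all genes (medians -0.35 and -0.41), and metformin values lie closer to 0 (medians -0.09 and -0.14).

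Cyclins and CDK1, which start mitosis, were counted apart from the 49. All 4 genes were downregulated in MET+LEU vs. SD, vs. 2% HS and vs. MET, where 7.80%, 20.3% and 3.15% of all genes tested fell. In LEU vs. SD 2 of 4 were downregulated, where 0.321% of all genes tested fell. Cyclin B1 (Ccnb1), the partner of CDK1 in mitosis, was at 5.36 ± 0.764 CPM in MET+LEU, 6.16 ± 0.430 in LEU, 7.77 ± 1.43 in MET, 10.03 ± 0.857 in SD and 10.00 ± 0.701 in 2% HS. Its log2 fold change was -0.89 (SE 0.11, adjusted p = 7.68e-08) in MET+LEU vs. SD and -0.70 (SE 0.10, adjusted p = 0.000149) in LEU vs. SD. Cyclin A2 (Ccna2) had -0.67 (adjusted p = 3.69e-08) and -0.54 (adjusted p = 7.92e-05), in the same order. Cdk1 and Ccnb2 had -0.61 (adjusted p = 2.11e-05) and -0.58 (adjusted p = 0.000412) vs. SD, and did not pass in LEU vs. SD.

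Of 70 further mitosis genes, 43 were downregulated and 2 upregulated in MET+LEU vs. SD (median -0.44), and 9 and 0 in LEU vs. SD (median -0.23). Over all genes tested, 7.80% fell and 10.6% rose in MET+LEU vs. SD, and 0.321% fell and 0.233% rose in LEU vs. SD. Cdkn3, Cenpm and Iqgap3 had the largest changes vs. SD, at -1.11 (adjusted p = 0.00347), -1.04 (adjusted p = 0.00142) and -0.93 (adjusted p = 1.18e-06). In SD vs. 2% HS 8 of the 70 were upregulated and 3 downregulated, led by Psrc1 at 0.90 (adjusted p = 1.21e-09). Neither share was above that of all genes tested, of which 13.9% rose and 13.9% fell. DNA replication genes act earlier in the cycle, in S phase. Of 43, 16 were upregulated and 1 downregulated in SD vs. 2% HS (median 0.19), with Cdc6 at 0.75 (adjusted p = 0.000521) and Gins2 at 0.74 (adjusted p = 0.00848). In MET+LEU vs. SD 16 of 43 were downregulated and 1 upregulated (median -0.17), led by the helicase subunit Mcm5 at -0.76 (adjusted p = 2.04e-06). In LEU vs. SD 3 of 43 were downregulated and 0 upregulated. The difference between the mitosis and replication genes was not tested.

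Of 18 genes that encode E2F, RB and DREAM proteins, 2 were downregulated and 2 upregulated in MET+LEU vs. SD, 11.1% in each direction, against 7.80% and 10.6% of all genes tested. The downregulated genes were E2f7 at -0.65 (adjusted p = 0.000171) and E2f2 at -0.20 (adjusted p = 0.0415), and the upregulated genes were Rbl2 at 0.19 (adjusted p = 0.000602) and Rb1 at 0.15 (adjusted p = 0.0102). In SD vs. 2% HS 1 was downregulated, Rb1 at -0.38 (SE 0.04, adjusted p = 4.97e-10), and 1 upregulated, Tfdp1 at 0.11 (adjusted p = 0.0267). Of all genes tested 13.9% fell and 13.9% rose in that comparison. Of 7 CDK inhibitors 5 could be tested, and Cdkn2a and Cdkn2b had 0 counts in every library, which allows up to 3 counts in each. Cdkn1a, which encodes p21, was at 1766 ± 73.9 CPM in 2% HS, 2394 ± 179 in SD and 2123 ± 129 in MET+LEU, with 0.44 (SE 0.04, adjusted p = 5.13e-12) in SD vs. 2% HS and -0.17 (SE 0.04, adjusted p = 0.00236) in MET+LEU vs. SD. Cdkn2c fell by 0.32 on the log2 scale in MET+LEU vs. SD (adjusted p = 0.00575), and Cdkn1b, which encodes p27, rose by 0.19 (adjusted p = 0.00430).

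Markers of myoblasts, reserve cells and myotubes were also counted. The 7 myoblast and reserve cell markers summed to 768 to 917 CPM per library in MET+LEU, 882 to 956 in LEU, 882 to 928 in MET, 867 to 1042 in SD and 1084 to 1177 in 2% HS. In SD vs. 2% HS 4 of 7 were lower, among them Pax7 at -0.37 (adjusted p = 1.25e-10) and Cdh15 at -0.36 (adjusted p = 6.40e-10), and 1 was higher, Id1 at 0.33 (adjusted p = 1.45e-05). Of all genes tested 13.9% fell and 13.9% rose. In MET+LEU vs. SD 1 was lower, Cdh15 at -0.23 (adjusted p = 4.33e-05), and 1 higher, Id2 at 0.26 (adjusted p = 0.00194). Of all genes tested 7.80% fell and 10.6% rose, and with 7 genes a single call in each direction is not far from those shares. The 11 myotube markers summed to 32577 to 40648 CPM in MET+LEU, 36865 to 38519 in LEU, 30260 to 33684 in MET, 33376 to 35909 in SD and 40197 to 42954 in 2% HS. In SD vs. 2% HS Ckm was lower at -0.98 (adjusted p = 6.25e-10), as were Mymx at -0.39 (adjusted p = 4.41e-06) and Ttn at -0.33 (adjusted p = 7.54e-06). Mylpf at 0.18 (adjusted p = 0.0382) and Des at 0.13 (adjusted p = 0.00650) were higher, and the other myotube markers did not pass. In MET+LEU vs. SD 3 of 11 were upregulated, with Tnnt3 at 0.82 (adjusted p = 1.08e-05), and 1 was downregulated, Mymx at -0.32 (adjusted p = 0.000473). The shares over all genes are those given above. No marker of either list was at 0 in a group, and the part of these markers in the mitosis gene results was not tested.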

How the data were processed

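RNA-sequencing libraries of C2C12 cells (5 groups, 6 each) were prepared by the authors with a stranded kit from ribosomal RNA-depleted total RNA and read at 150 × 150 bp. The submitters' processing notes name cutadapt 1.16, STAR 2.7.6a, featureCounts 1.6.3, DESeq2 1.30.1 and GRCm38. The annotation release and strand setting are not given in the sources used here. The deposited values are the authors' raw counts per gene, without normalization, for 55487 Ensembl genes, of which 55227 matched GENCODE M21 for symbols, positions and exon lengths. No 2 libraries had identical counts.

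Counts were analysed in R 4.3.3 with edgeR 4.0.16. Genes were kept by filterByExpr (minimum count 10, minimum total 15), libraries were scaled by TMM, and a mean per group was fitted to all 30 libraries (glmQLFit, robust; common BCV 0.0709). Quasi-likelihood F tests were adjusted by Benjamini-Hochberg over the 15907 genes tested, with a threshold of 0.05. The standard error is the absolute log2 fold change divided by the square root of F. Libraries of 12784960 to 19604103 counts limit the precision of low genes, and a count of 0 allows up to 3 counts. Alternatives were DESeq2 size factors, upper-quartile scaling, the DESeq2 1.42.0 Wald test, limma 3.58.1 (voom with sample quality weights), a filter at more than 5 counts in total, models of only the groups compared or with replicate number as a block, and leaving out each library. The fits were tested on simulated data.

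The 49 genes, the other gene lists and the tests were chosen with earlier results of these data known. Mki67, Top2a, Foxm1, Mybl2, Aurkb, Plk1, Birc5 and Cdc20 are named throughout, with up to 10 genes past the threshold with the largest absolute log2 fold change per comparison, and the other members by their roles. Of the other lists the 4 cyclin and CDK1 genes and up to 3 genes per list with the largest changes are named, and Myog, Acta1, Cdkn2a, Cdkn2b and the overlapping Tnnc2 and Cdc23 were named after their values were seen. Promoters are shown for 4 genes with TTTGAA before the start, ordered by log2 fold change.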

Additional observations from a re-analysis of the deposited data

Results flagged for a closer look

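In groups of 6 libraries, a library was taken as far from the others when its gap to the nearest one, divided by the range of the group, exceeded Dixon's 95% critical value. Over 35 genes and the summed level in 5 groups, 180 checks gave 7 such values, and chance gives about 1 in 20. In SD replicate 6, Anln was at 43.8 CPM (other SD libraries 33.5 to 36.2), Hmmr at 14.1 CPM (11.3 to 11.9) and Ccnf at 16.1 CPM (13.9 to 14.7). Mki67 was at 84.4 CPM in MET+LEU replicate 6 (52.7 to 63.6 in the others) and at 86.3 CPM in 2% HS replicate 1 (72.5 to 76.7). The value in MET+LEU replicate 6 rests in part on its low scaling factor of 0.803. Aurkb was at 5.26 CPM in 2% HS replicate 4 (3.94 to 4.43), and Kif20a at 19.1 CPM in MET replicate 6 (13.4 to 14.3). SD replicate 6 was also the library without which the fewest genes passed in SD vs. 2% HS (5 of 49) and, with LEU replicate 4, in LEU vs. SD (5 of 49).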

How the results depend on the processing

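The 49 genes kept the same direction of calls under every alternative that was run: those in SD vs. 2% HS were all higher, and those in the other comparisons all lower. In MET vs. SD and for the interaction the count of calls was 0 under each alternative that gave a value. DESeq2 gave no adjusted p for any of the 49 genes in the interaction, so that count was not obtained. DESeq2 size factors and upper-quartile scaling left the counts at 10, 13, 44, 33 and 34 (SD vs. 2% HS, LEU vs. SD, MET+LEU vs. SD, vs. 2% HS and vs. MET), and gave 6 in place of 5 in MET+LEU vs. LEU. Counts that moved by over 1.5 times were those of LEU vs. SD (13, and 20 with limma-voom), MET+LEU vs. LEU (5, against 2 with limma-voom, 3 with genes with more than 5 counts in total and 0 with only the groups compared) and MET+LEU vs. MET (34, against 21 with only the groups compared). When each of the 30 libraries was left out in turn, the counts ranged from 5 to 11 in SD vs. 2% HS, 0 to 0 in MET vs. SD, 5 to 22 in LEU vs. SD, 39 to 44 in MET+LEU vs. SD, 31 to 34 vs. 2% HS, 1 to 7 vs. LEU (7 without MET+LEU replicate 1), 21 to 35 vs. MET and 0 to 0 for the interaction. In SD vs. 2% HS, where neither passed, the log2 fold change of Plk1 ranged from -0.046 to 0.069 and that of Mki67 from -0.025 to 0.107 over those fits. The cause of these differences was not tested. The replicate number was not treated as a pairing, since deviations from the group means correlated between same-numbered libraries with a mean r of only 0.0157 (lowest -0.0913) and 9 of 30 libraries correlated best with their own number. With the replicate block the counts were 10 in SD vs. 2% HS, 0 in MET vs. SD, 12 in LEU vs. SD, 44 in MET+LEU vs. SD, 33 vs. 2% HS, 5 vs. LEU, 36 vs. MET and 0 for the interaction. Genes at a few CPM, such as Cdc25c and Mybl2, have wide intervals at this depth.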
